A study of Mus musculus with 6 samples.

Results

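The SR splicing factor genes encode the serine- and arginine-rich proteins that help choose splice sites. In the gene count table they were taken as the 10 rows, of 55335, whose Ensembl identifier carries the symbol Srsf1, Srsf2, Srsf3, Srsf4, Srsf5, Srsf6, Srsf7, Srsf9, Srsf10 or Srsf11 in GENCODE release M21, and all 10 were found and passed the filter on low counts. The study looked for enhancers that produce enhancer RNAs in stimulated macrophages, and sequenced total RNA of bone marrow-derived macrophages (BMDMs) for that purpose. From the enhancers found, it chose an enhancer of Tnf for closer study. The libraries comprise 3 from C57BL/6 BMDMs given PBS and 3 from C57BL/6 BMDMs given LPS, the bacterial cell wall component sensed by Tlr4, each collected after 1 h. All of them carry WT, for wild type, in their library names. Both groups were grown from marrow of femur and tibia for 6 days with 10% fetal bovine serum and 20% medium conditioned by L929 cells, which supplies the macrophage growth factor. The methods of the study name male mice of 7 to 10 weeks, and the labels of these libraries state neither an LPS dose nor whether replicates came from separate animals, so p-values measure the spread between these samples, which may be technical.

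SR proteins bind short sequences in exons of nascent transcripts through RNA recognition motifs, and their tails of repeated arginine and serine bring in the U1 and U2 particles that mark the splice sites. The tails are phosphorylated by the SRPK kinases, chiefly in the cytoplasm, and by the CLK kinases in the nucleus, and the phosphorylation governs where an SR protein sits and what it binds. Most SR genes also limit their own output by producing transcripts with a retained intron or an extra exon that brings in a premature stop codon, many of which are removed by nonsense-mediated decay (NMD). A count per gene pools all of these transcripts, so the values below are levels of all RNA assigned to a gene and not of its coding mRNA or protein.

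Library totals ranged from 37787611 to 41516330 counts. Values are CPM, counts scaled to a fixed library total after correction by TMM, a factor per library that is computed from the bulk of the genes, and n = 3 for every group. Tnf went from 20.2 ± 1.19 to 2302 ± 49.8 CPM (SD) and the NF-kB inhibitor gene Nfkbia from 70.2 ± 2.31 to 1942 ± 118 CPM, so the stimulus was visible in the libraries labelled LPS. Of 9 macrophage markers, 7 were higher and 1 lower in LPS libraries at an adjusted p under 0.05. Such counts, here and for other cells, are to be read beside all tested genes, of which 32.9% were higher and 34.9% lower. The summed level of the macrophage markers was 30143 to 31432 CPM in PBS and 36100 to 36462 CPM in LPS libraries. Within this sum Cd14 alone went from a mean of 398 CPM in PBS to 3623 CPM in LPS libraries. Summed markers of other cells were far lower and, with TMM scaling, were also higher in LPS libraries for neutrophils (3 of 6 tested genes higher, 40.8 to 43.6 against 52.7 to 56.8 CPM), T and NK cells (1 of 2 tested, 21 to 23.1 against 30.8 to 31.3 CPM, nearly all of it Cd4), dendritic cells (5 of 5, 3.32 to 4.23 against 10 to 11 CPM), fibroblasts (1 of 6, 14.7 to 15.9 against 18 to 21.1 CPM) and erythroid and mast cells (2 of 2 tested, 0.87 to 1.2 against 1.5 to 1.9 CPM), and in part for B cells (1 of 2 tested, 2.88 to 3.17 against 2.88 to 3.64 CPM). The sums include listed genes that were too low to be tested, namely 1 of 7 for neutrophils, 4 of 6 for T and NK cells, 4 of 6 for erythroid and mast cells and 3 of 5 for B cells. Among their genes, Cd3e had at most 5 counts in any library and Ly6g at most 3, while S100a9 had 805 to 982 counts (log2 fold change 0.37), S100a8 479 to 575 (0.40) and Cd4 927 to 1025 (0.52), and the part of other cells in the results below was not tested. In RNA from a whole culture, fewer cells of a type and less RNA per cell cannot be told apart.

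After 1 h of LPS, the SR genes moved in both directions. With TMM scaling 6 genes were higher (Srsf7, Srsf3, Srsf5, Srsf4, Srsf11 and Srsf6), of which Srsf4, Srsf6 and Srsf11 turn to slightly below 0 when libraries are scaled by their total counts alone, and 4 were lower (Srsf2, Srsf9, Srsf10 and Srsf1). The largest rise was 1.76-fold, in Srsf7, and the largest fall 1.38-fold, in Srsf2. In the quasi-likelihood test of edgeR, the adjusted p was under 0.05 for all 10, as it was for 67.7% of the 15687 tested genes, 32.9% being higher and 34.9% lower. None of the 10 also passed an absolute log2 fold change of 1, which 20.9% of tested genes did (10.5% higher and 10.4% lower), by edgeR, DESeq2 or limma voom, although all 10 had an unadjusted p under 0.05 by edgeR. In all 10 the PBS and LPS libraries did not overlap in CPM, against 70.5% of tested genes (33.9% higher and 36.6% lower). The median log2 fold change of the 10 genes was 0.32, beside -0.01 for all tested genes, and the genes spanned 1.28 on the log2 scale from Srsf2 to Srsf7. The share of genes called in this comparison is high, so being called says little about an SR gene, and the direction and size of each are given below.

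**Figure D1:**
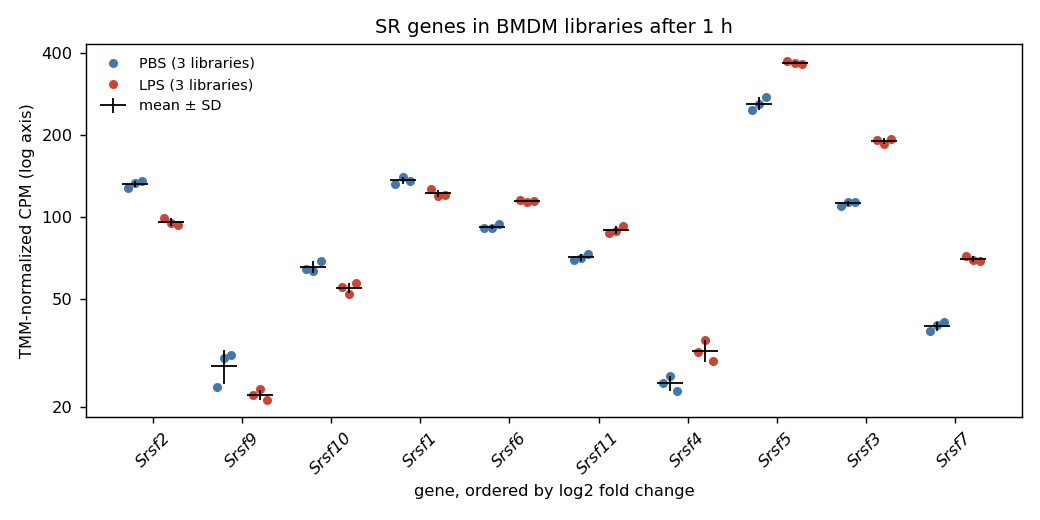
TMM-normalized CPM (log axis) of the 10 SR genes, ordered by log2 fold change from Srsf2 to Srsf7, with 3 PBS (blue) and 3 LPS (red) libraries as points and the mean ± SD as black marks. The libraries of the groups do not overlap for any of the 10 genes, and Srsf5 goes from a mean of 261 CPM in PBS to 369 in LPS. CPM are not corrected for gene length.

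Srsf7 (ENSMUSG00000024097, chr17:80200080-80207307 on the minus strand, GRCm38) encodes a shuttling SR protein with a zinc knuckle that helps load mRNA onto the export receptor Nxf1. It stood at 38.1, 40.2 and 41.0 CPM in PBS libraries and at 72.0, 69.3 and 69.2 CPM in LPS libraries. The lowest LPS library was thus well above the highest PBS library. The log2 fold change was 0.82 (SE 0.04, adjusted p = 3.69e-12, edgeR), above that of 87.6% of tested genes. Srsf3 (ENSMUSG00000071172, chr17:29032628-29043373 on the plus strand) encodes the smallest SR protein, a close relative of Srsf7 that also takes part in mRNA export and in choice of the polyadenylation site. Its level was 109, 114 and 114 CPM in PBS and 191, 185 and 194 CPM in LPS libraries. All LPS values lay far above all PBS values (log2 fold change 0.76, SE 0.03, adjusted p = 7.38e-13, edgeR), and the raw counts rose as well, from 5208, 5132 and 5259 to 6413, 6036 and 6598 although the LPS libraries were smaller. Srsf7 and Srsf3 thus gave the largest rises among the 10 genes.

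Srsf5 (ENSMUSG00000021134, chr12:80945504-80950507, plus strand), known from regenerating liver as an early growth response gene, was at 247, 261 and 276 CPM in PBS and at 374, 368 and 366 CPM in LPS libraries. Its PBS libraries differed from each other more than its LPS libraries did, and the groups were far apart (log2 fold change 0.50, SE 0.04, adjusted p = 1.82e-09, edgeR). Srsf4 (ENSMUSG00000028911, chr4:131873617-131901706, plus strand), an SR protein with a long arginine- and serine-rich tail, had 24.6, 26.1 and 22.9 CPM in PBS and 32.1, 35.5 and 29.5 CPM in LPS libraries. The spread within each group was wide next to the distance between them, and the log2 fold change of 0.40 (SE 0.06, adjusted p = 2.59e-05, edgeR) becomes -0.0058 (adjusted p = 0.937) with scaling by library size alone. Its raw counts overlapped, with 1169, 1181 and 1056 in PBS and 1076, 1158 and 1005 in LPS libraries.

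Srsf11 (ENSMUSG00000055436, chr3:158010473-158036639, minus strand), an SR-related protein of the spliceosome, had 69.3, 70.9 and 73.5 CPM in PBS and 87.1, 89.0 and 92.9 CPM in LPS libraries. Replicate 3 was the highest in both groups, and the groups were clearly separate with TMM scaling (log2 fold change 0.33, SE 0.04, adjusted p = 4.21e-07, edgeR) but not with library size alone (-0.072, adjusted p = 0.0923). Srsf6 (ENSMUSG00000016921, chr2:162931528-162937121, plus strand), a regulator of alternative exons, varied least in LPS libraries, at 115, 114 and 114 CPM, beside 91.4, 90.9 and 94.0 CPM in PBS libraries. The log2 fold change of 0.31 (SE 0.03, adjusted p = 1.53e-07, edgeR) turned to -0.092 (adjusted p = 0.0173) with library size alone.

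Among the genes that were lower, Srsf2 (ENSMUSG00000034120, chr11:116849901-116853094, minus strand) encodes the protein long used as the marker of nuclear speckles, which also acts in the release of paused RNA polymerase. It had 128, 134 and 135 CPM in PBS and 99.4, 94.9 and 93.1 CPM in LPS libraries. Every LPS library lay below every PBS library by a wide margin, and the log2 fold change was -0.47 (SE 0.04, adjusted p = 2.53e-09, edgeR). Srsf1 (ENSMUSG00000018379, chr11:88047373-88053755, plus strand), the first SR protein to be purified as a splicing factor, changed least of the 10 with TMM. It went from 132, 140 and 136 CPM to 126, 120 and 120 CPM. The highest LPS library came close to the lowest PBS library without reaching it, at a log2 fold change of -0.16 (SE 0.04, adjusted p = 7.86e-04, edgeR).

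Srsf10 (ENSMUSG00000028676, chr4:135855747-135869908, plus strand), which represses splicing when it loses its phosphates in heat shock and mitosis, was at 64.2, 63.3 and 69.2 CPM in PBS and at 55.4, 52.3 and 57.1 CPM in LPS libraries. The groups were separate, with replicate 3 the highest of each (log2 fold change -0.26, SE 0.04, adjusted p = 6.12e-05, edgeR). Srsf9 (ENSMUSG00000029538, chr5:115327177-115333080, plus strand), the nearest relative of Srsf1, had 23.8, 30.4 and 31.0 CPM in PBS and 22.2, 23.3 and 21.3 CPM in LPS libraries. PBS replicate 1 stood apart from the other PBS libraries and close to the LPS libraries. The log2 fold change was -0.35 (SE 0.08, adjusted p = 8.14e-04, edgeR), and without PBS replicate 1 it was -0.47 (adjusted p = 1.44e-06).

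These directions depend on how libraries are put on a common scale. The mean TMM factor was 1.15 in PBS and 0.869 in LPS libraries. Scaling by library size alone moved the median log2 fold change of all tested genes by -0.40, and upper quartile scaling moved it by -0.14. With library size alone Srsf7 (0.41), Srsf3 (0.35) and Srsf5 (0.095, adjusted p = 0.0314) were still higher, 5 of the 10 genes were lower, Srsf6 among them, and Srsf4 and Srsf11 did not pass. Srsf2 then fell by 0.87, Srsf9 by 0.76, Srsf10 by 0.66 and Srsf1 by 0.56 on the log2 scale. With upper quartile scaling the same 6 genes were higher and the same 4 lower. As a share of the raw total, the 10 genes together made up 0.106%, 0.112% and 0.114% of counts in PBS and 0.102%, 0.0994% and 0.101% in LPS libraries, whereas their summed CPM with TMM was higher in LPS libraries (1151 to 1175) than in PBS libraries (928 to 993). Whether SR gene RNA rose or fell as a whole therefore turns with the scaling.

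**Figure D2:**
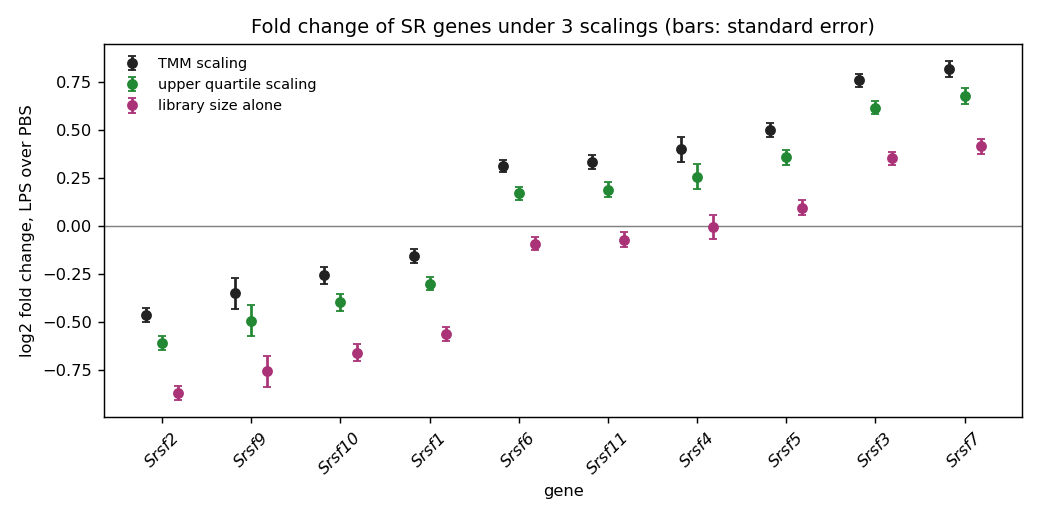
Log2 fold change of LPS over PBS for each SR gene with TMM (black), upper quartile (green) and library size alone (purple), with bars for the standard error. The 10 genes shift together between scalings; Srsf2, Srsf9, Srsf10 and Srsf1 lie below 0 and Srsf5, Srsf3 and Srsf7 above 0 in all of them, and Srsf6, Srsf11 and Srsf4 cross 0.

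The balance among the SR genes does not depend on the scaling, since it can be read within each library from the counts. For 1 count of Srsf2 there were 0.297, 0.301 and 0.303 counts of Srsf7 in PBS and 0.724, 0.730 and 0.743 in LPS libraries. The libraries of a group hardly differed, and the ratio more than doubled. Srsf3 over Srsf1 went from 0.825 ± 0.0151 to 1.56 ± 0.0534 (SD), Srsf3 over Srsf2 from 0.849 ± 0.00516 to 1.98 ± 0.0860, and Srsf5 over Srsf2 from 1.97 ± 0.0603 to 3.85 ± 0.0833. Over all pairs of a higher and a lower gene, log2 ratio changes ran from 0.47 (Srsf6 over Srsf1) to 1.29 (Srsf7 over Srsf2). Their direction follows from how the pairs were formed and is no separate result. The counts are not corrected for length, so only the change of a ratio between groups is read and not which gene has more RNA.

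Other pairs kept their ratio within the spread of the libraries. Srsf7 over Srsf3 was 0.354 ± 0.00574 in PBS and 0.369 ± 0.0108 in LPS libraries, and the ranges overlapped. They also overlapped for Srsf4 over Srsf6 (0.266 and 0.283), Srsf11 over Srsf6 (0.773 and 0.784), Srsf9 over Srsf1 (0.208 and 0.182) and Srsf10 over Srsf1 (0.482 and 0.450). In the order of log2 fold changes from Srsf2 through Srsf9, Srsf10, Srsf1, Srsf6, Srsf11, Srsf4, Srsf5 and Srsf3 to Srsf7, neighbours were separate in their ratio at 2 of 9 places, between Srsf1 and Srsf6 (a step of 0.47) and between Srsf5 and Srsf3 (0.26). The other 7 steps, of at most 0.12, lay within the spread of the libraries. Between neighbours, the order is therefore set only at these 2 places.

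**Figure D3:**
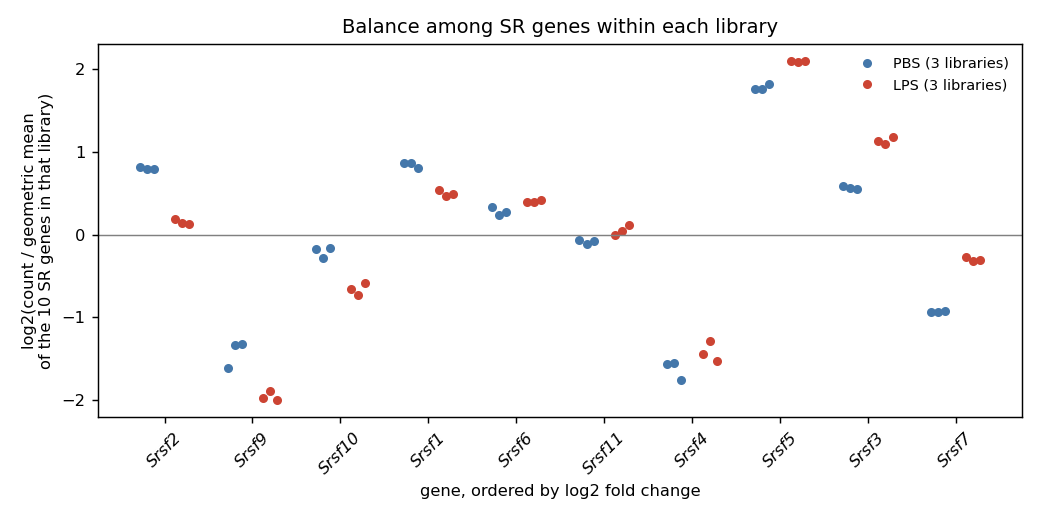
Log2 of each SR gene's count over the geometric mean of the 10 genes in the same library, for 3 PBS (blue) and 3 LPS (red) libraries. Srsf2 drops from a mean of 0.80 to 0.15 and Srsf3 climbs from 0.57 to 1.14. Counts are not corrected for length, so heights are compared within a gene and not between genes.

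As a share of the summed counts of the 10 genes, Srsf5 went from a mean of 27.1% to 31.8%, Srsf3 from 11.7% to 16.4% and Srsf7 from 4.13% to 6.04%. Srsf1 went from 14.1% to 10.5% and Srsf2 from 13.7% to 8.25%. Between genes, levels were compared only per length, as TPM, counts per base of annotated exon scaled to a fixed total in each library without a TMM factor. In PBS libraries Srsf5 (207 ± 10.8 TPM) and Srsf2 (142 ± 3.60) led, followed by Srsf1 (75.5 ± 2.32), Srsf6 (60.6 ± 0.882), Srsf9 (54.4 ± 7.56), Srsf3 (45 ± 0.946), Srsf7 (35.4 ± 1.24), Srsf10 (29.6 ± 1.32), Srsf11 (26.7 ± 0.703) and Srsf4 (21.8 ± 1.51). The ranges of neighbours in this order did not overlap, but that of Srsf9, 45.7 to 59.1 TPM, nearly touched both Srsf6 and Srsf3. In LPS libraries Srsf5 (213 ± 7.56 TPM) and Srsf2 (74.7 ± 3.85) still led, and Srsf3 (55.4 ± 2.86) had moved up beside Srsf6 (54.8 ± 1.83) and Srsf1 (49.3 ± 2.62), ahead of Srsf7 (45.6 ± 2.06), Srsf9 (31.0 ± 0.753), Srsf11 (24.5 ± 1.14), Srsf4 (20.9 ± 1.42) and Srsf10 (18.1 ± 1.29). In LPS libraries the ranges of Srsf3 and Srsf6 overlapped, as did those of Srsf1 and Srsf7, and other neighbours were separate. These levels rest on the exon lengths used. As an alternative, the same gene counts were divided by the length of exons of protein-coding transcripts only. Srsf3 was then at 111 TPM in PBS and 139 in LPS libraries, above Srsf1 in both. Reads from other exons stayed in the counts, so these are not levels of coding transcripts.

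The promoters of the genes at the ends of the order are shown, since these genes gave the largest rises and the largest fall with TMM. With library size alone the falls of Srsf2, Srsf9, Srsf10 and Srsf1 were larger than any rise. Sequences are from RefSeq on GRCm38.p6, 5′ to 3′ on the strand of the gene, and hold the 150 bases before the RefSeq start. That start lay 0 bases from the GENCODE M21 start of the gene for Srsf2, 2 for Srsf7, 5 for Srsf5 and 32 for Srsf3. The last 32 bases shown for Srsf3, its TATAAA among them, thus lie within the gene span given above. Capitals mark matches to the motifs searched. The windows lie at chr17:80207306-80207455 (minus strand) for Srsf7, chr17:29032510-29032659 (plus) for Srsf3, chr12:80945349-80945498 (plus) for Srsf5 and chr11:116853095-116853244 (minus) for Srsf2.
Srsf7: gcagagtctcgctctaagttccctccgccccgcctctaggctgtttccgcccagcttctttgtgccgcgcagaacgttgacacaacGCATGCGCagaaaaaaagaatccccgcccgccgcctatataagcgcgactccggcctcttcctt
Srsf3: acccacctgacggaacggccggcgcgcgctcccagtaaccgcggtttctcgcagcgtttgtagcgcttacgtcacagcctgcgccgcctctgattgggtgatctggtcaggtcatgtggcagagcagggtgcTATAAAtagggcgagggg
Srsf5: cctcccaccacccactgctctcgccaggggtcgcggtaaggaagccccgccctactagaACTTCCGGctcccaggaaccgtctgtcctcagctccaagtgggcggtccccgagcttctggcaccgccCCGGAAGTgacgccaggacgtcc
Srsf2: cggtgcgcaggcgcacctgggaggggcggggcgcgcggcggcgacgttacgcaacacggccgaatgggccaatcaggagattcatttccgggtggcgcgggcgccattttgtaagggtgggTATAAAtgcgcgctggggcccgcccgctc

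Over windows of 300 bases, 250 before to 50 after the RefSeq start, all 10 genes had an entry among 32851 promoters. The RefSeq start of Srsf10 lay 324 bases from that in GENCODE M21, the largest such distance of the 10 genes. Positions below are counted from the RefSeq start. The 10 promoters were rich in G and C, with a median of 68.7% against 52.7% for all promoters, and held a median of 35 CpG against 7. On both strands, TATAAA was found in Srsf2, 29 to 24 bases before the start, and in Srsf3, 18 to 13 bases before it, and in 13.6% of all promoters. Srsf2 and Srsf3 moved in opposite directions. Only the exact letters were searched, so similar strings, such as tatataag in the window printed for Srsf7, were not counted. The ETS-type site CCGGAAGT was found in Srsf4 and in Srsf5, there at 2 places, and in 3.89% of all promoters. The NRF1-type site GCATGCGC was found in Srsf7 (2.71% of all promoters), and the palindrome TCTCGCGAG in Srsf4 and Srsf10 (0.676%). None of the 10 held the cAMP response element TGACGTCA (1.79% of all promoters), TGACGCAA (0.490%), the E-box CACGTG (7.15%), the AP-1 site TGANTCA (7.81%), the NF-kB site GGGACTTTC (0.353%), the serum response element CCATATTAG (0.103%) or the YY1-type site AAGATGGCG (1.40%), in these letters and this window. A match is a string of letters and not a bound site.

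The transcripts annotated for the SR genes were set beside those of all protein-coding genes, as a description. The latter include genes that did not pass the filter on low counts. Neither the tested genes alone nor the lists of related genes below were compared in this way. GENCODE M21 lists an NMD transcript for 9 of the 10, all but Srsf10, against 20.8% of 22028 protein-coding genes, and a retained intron transcript for 8 of the 10, all but Srsf9 and Srsf10, against 41.4%. Exons cover a median of 61.5% of the span of an SR gene, against 20.5%. Sequence that is exonic only in transcripts of types other than protein-coding, NMD transcripts among them, makes up a median of 29.8% of the exonic length, against 4.52%. It was 66.9% in Srsf3, 60.6% in Srsf11, 58.5% in Srsf5, 36.6% in Srsf4, 27.4% in Srsf7 and 23.2% in Srsf6. Among the lower genes it was 32.3% in Srsf2, 24.9% in Srsf9, 16.6% in Srsf10 and 2.66% in Srsf1. The 6 genes that were higher with TMM carry 23 annotated retained intron transcripts, 11 of them in Srsf11, and the 4 lower genes carry 3. Per gene the groups overlapped, with 4 in Srsf3, 3 each in Srsf5 and Srsf7, and 1 each in Srsf4 and Srsf6, against 2 in Srsf1 and 1 in Srsf2. Reads of total RNA from these stretches count toward the gene, and the share of coding transcripts in each gene's count was not analysed here.

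**Figure D4:**
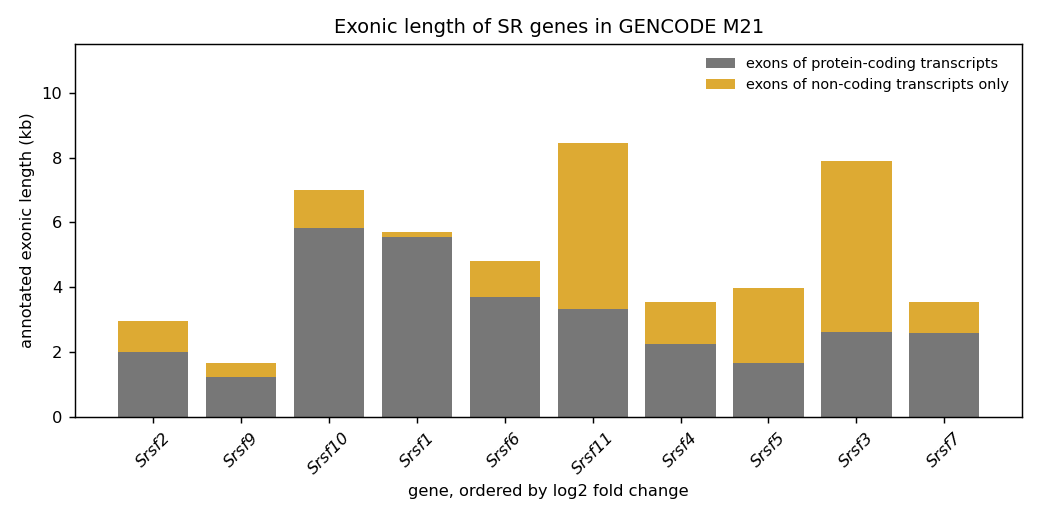
Annotated exonic length in kb of the 10 SR genes, in the order of log2 fold change. Grey marks exons of protein-coding transcripts. Yellow, labelled non-coding, marks exons found only in transcripts of other types, NMD transcripts among them. The yellow part makes up more than 50% of the bar for Srsf11, Srsf5 and Srsf3, and the lowest share is that of Srsf1, 2.66%.

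Overlapping and nearly identical genes limit some of these counts, as the strand setting and the handling of reads with several matches are not given in the sources used here. Srsf2 shares exonic bases with genes on the other strand, 288 with Mfsd11 and 460 with Mettl23. Mfsd11 went from 4501, 4202 and 4251 counts in PBS to 1922, 1820 and 1899 in LPS libraries. This change (log2 fold change -0.73, SE 0.04, adjusted p = 2.46e-12, edgeR) was in the direction of Srsf2. Mettl23 did not pass with TMM (log2 fold change -0.05, adjusted p = 0.511, edgeR). It was lower by edgeR with library size alone (-0.46, adjusted p = 1.11e-05), where most tested genes were lower too. With upper quartile scaling Mettl23 was also lower (-0.20, adjusted p = 0.0191). Srsf4 shares 1532 bases, 43.0% of its exonic length, with Gm12992 on the other strand, which had 20 to 21 counts in PBS and 23 to 32 in LPS libraries beside more than 1000 of Srsf4. An intron of Srsf4 holds the unclassified transcript A930004J17Rik on the same strand, which went from 484, 469 and 464 to 651, 560 and 665 counts. Its log2 fold change of 0.87 (SE 0.07, adjusted p = 2.17e-09, edgeR) was larger than that of Srsf4 itself.

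Similarly, Gm43362 inside Srsf11 had 261, 271 and 324 counts in PBS and 325, 262 and 259 in LPS libraries. It was called higher with TMM (log2 fold change 0.45, SE 0.11, adjusted p = 0.00125, edgeR) and did not pass with library size alone. Lrrc40, whose start faces that of Srsf11, was lower (-0.20, adjusted p = 0.00247), opposite to Srsf11 with TMM. Stretches of 100 bases of an SR gene recur in genes elsewhere. Of those of Srsf3, the processed pseudogene Gm9761 holds 3.15% and Gm12355, annotated as protein-coding, 3.82%, and the processed pseudogene Gm12966 holds 5.46% of those of Srsf5. These pseudogenes were higher with LPS like their parent genes, Gm9761 from 256, 221 and 248 to 361, 368 and 384 counts (log2 fold change 1.09) and Gm12966 from 685, 583 and 600 to 821, 726 and 763 counts (0.78). Whether their reads came from the parent genes was not tested. For Srsf6, Srsf7, Srsf9 and Srsf11 no other annotated transcript held such a stretch.

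Genes that act with the SR proteins were counted over whole lists, by the same test. The counts are to be read beside all 15687 tested genes, of which 32.9% were higher and 34.9% lower with TMM, at a median of -0.01, and 2354 were higher and 10337 lower with library size alone. Of 8 SR protein kinases, 1 was higher, 4 were lower and 3 did not pass, with a median log2 fold change of -0.19, and with library size alone none was higher and 7 were lower, where most tested genes were lower too. The nuclear kinase Clk2 went from 24.7 ± 1.40 to 12 ± 0.11 CPM, the largest fall among them (-1.04, SE 0.06, adjusted p = 3.96e-11, edgeR). Clk4 (-0.56) and Prpf4b (-0.25), a kinase of spliceosome assembly, were lower as well. Srpk1 was slightly lower (-0.13, adjusted p = 0.0115), which DESeq2 did not call (adjusted p = 0.0622). Clk1 was higher with TMM (0.24, SE 0.04, adjusted p = 1.52e-05, edgeR) and lower with library size alone (-0.17). Srpk2 (0.06, adjusted p = 0.195), Clk3 (0.06, adjusted p = 0.185) and Srpk3 (-0.26, adjusted p = 0.482, at 10 to 23 counts) did not pass.

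Of 26 SR-like proteins and coactivators with arginine- and serine-rich stretches, 25 were tested, 13 being higher, 10 lower and 2 not past the threshold, at a median of 0.12, beside 32.9% higher and 34.9% lower of all tested genes, but with library size alone 4 were higher and 19 lower. Tra2a and Tra2b, SR-like activators of exons, were higher by 0.96 (SE 0.04, from 43.2 ± 2.93 to 84.2 ± 0.615 CPM) and 0.66 (SE 0.04, from 69.6 ± 1.78 to 110 ± 3.46 CPM) on the log2 scale. Rsrp1 had the largest change of this list, from 317 ± 11.1 to 98.8 ± 3.27 CPM (-1.68, SE 0.04, adjusted p = 2.13e-17, edgeR). Luc7l3, a relative of a U1 particle protein, was lower (-1.15) and Ppig, a cyclophilin with such a stretch, was higher (1.15). Srsf12, the remaining gene with an Srsf symbol, had 1 count in 1 PBS library and none elsewhere, and was not tested.

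The hnRNP proteins, which often oppose SR proteins at exons, were mostly higher with TMM, 21 of 27 against 3 lower and 3 not past the threshold, at a median of 0.30, beside 32.9% higher and 34.9% lower of all tested genes, but with library size alone 8 were higher and 13 lower. Ptbp1, a repressor of exons, went from 125 ± 2.71 to 270 ± 5.51 CPM (1.11, SE 0.03, adjusted p = 1.86e-15, edgeR), Hnrnpll, known from T cell exon choice, from 76.5 ± 4.63 to 177 ± 8.91 CPM (1.21), and Hnrnph3 from 7.39 ± 1.07 to 17.6 ± 0.507 CPM (1.25). Of 21 genes that recognise splice sites within or beside the U1 and U2 particles, 12 were higher and 9 did not pass with TMM, beside 32.9% higher of all tested genes, and 2 were higher and 18 lower with library size alone, beside 2354 and 10337 of 15687. None was lower by edgeR with its default filter and no replicate block, at an adjusted or an unadjusted p under 0.05, nor by DESeq2 or limma voom, while 1 was with the block, 1 under either other filter, and 2 without PBS replicate 1 or without LPS replicate 2. Sf1, the branch point binding protein (0.81), and Sf3b1, a U2 subunit that holds the branch point (0.69), were higher, and Sf3b3 (0.31) turned to -0.093 with library size alone.

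Of 10 NMD factors, 1 was higher, 4 were lower and 5 did not pass, at a median of -0.06, and with library size alone all 10 were lower. The share of lower genes with TMM was close to the 34.9% of all tested genes, and 10337 of these 15687 were lower with library size alone. Upf2, a core factor, went from 34.1 ± 0.925 to 19.0 ± 0.573 CPM (-0.85, SE 0.05, adjusted p = 4.04e-11, edgeR), Smg5, which helps release Upf1 and recruit decay enzymes, from 53.0 ± 1.10 to 30.1 ± 2.12 CPM (-0.82), and Upf3b, which links NMD to the marks that splicing leaves on exons, was lower (-0.51). Of 9 genes of SR protein import and mRNA export, 1 was higher, 3 were lower and 5 did not pass at a median of -0.07, beside 32.9% higher and 34.9% lower of all tested genes, and with library size alone 8 were lower and none higher. Nxt1, the partner of the export receptor Nxf1, was lower (-0.93, SE 0.08, adjusted p = 6.64e-09, edgeR). Of the import receptors in this list, Tnpo1 was lower (-0.41) and Tnpo3 slightly lower (-0.14, adjusted p = 0.00202, edgeR). Thoc2 of the export complex was higher with TMM (0.43) and did not pass with library size alone (0.021).

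**Figure D5:**
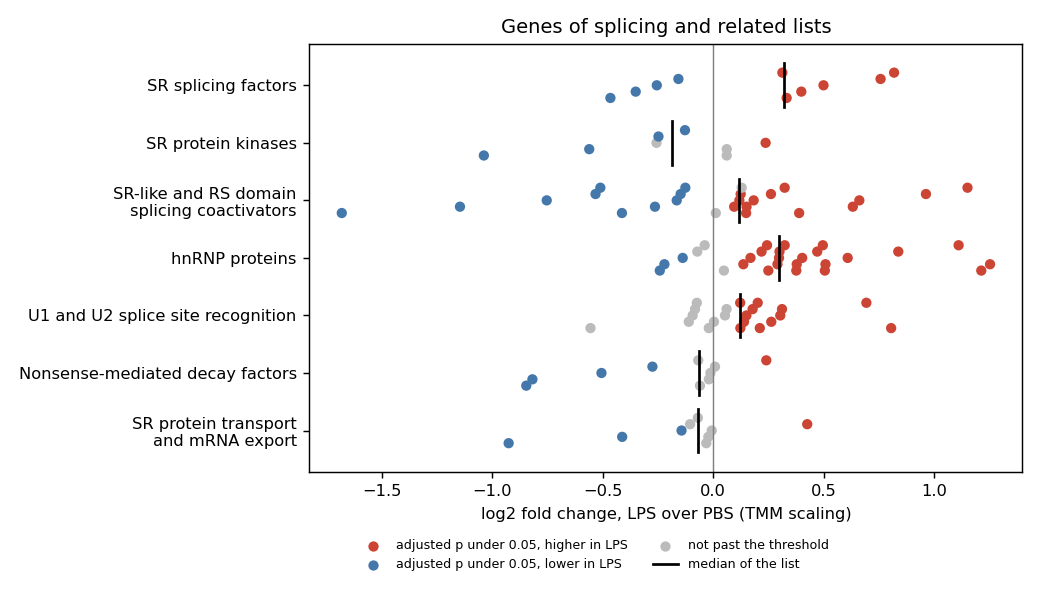
Log2 fold change of LPS over PBS (TMM) for each tested gene of the SR splicing factors and 6 related lists, with genes at an adjusted p under 0.05 in red (higher) or blue (lower), other genes in grey, and the median of each list as a black line. The medians run from -0.19 for the SR protein kinases to 0.32 for the SR genes, and the widest spread is that of the SR-like proteins, from -1.68 to 1.15.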

How the data were processed

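Total RNA of 6 BMDM libraries was analysed, 3 per group, with groups, replicate numbers and columns taken from the labels. Libraries were made with a stranded kit, and per the labels and the submitters' processing notes reads were checked with FastQC 0.11.9, aligned to GRCm38 with HISAT2 2.1.0, handled with SAMtools 1.17 and counted per gene with featureCounts 2.0.0. The deposited values are counts without normalization. The annotation release, the strand setting and the treatment of reads with several matches are not given in the sources used here. Of 55335 rows, 55154 matched GENCODE M21 with the version suffix left out.

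Counts were tested in R 4.3.3 with edgeR 4.0.16 (filterByExpr, 15687 genes, TMM, quasi-likelihood test, Benjamini-Hochberg over all tested genes), without a term for the replicate number, since the study describes pairwise comparisons and names no such term. The labels give the replicate numbers as batches shared by both groups. After subtraction of group means, the libraries with the same number correlated across genes at -0.0139, 0.0822 and 0.0387, and a fit with the number as a block was made beside it. Libraries of a group differed by more than counting noise (chi-square per degree of freedom 5.41 to 20.3), so none was treated as a repeat of another. Standard errors were derived from the F statistic. TPM used the union of exons of GENCODE M21. Alternatives were scaling by library size alone, by upper quartiles or by DESeq2's size factors, a filter of 1 count in any library or 10 counts in every library, DESeq2 1.42.0, limma voom (limma 3.58.1), the block, removal of the 10 genes with the highest mean count, and leaving out each library. On simulated counts for 15687 genes in this design with 200 changed by a log2 fold change of 2, edgeR recovered 193, DESeq2 189 and limma voom 194. At an adjusted p under 0.05 alone, edgeR called 8 unchanged genes in that run, DESeq2 4 and limma voom 7. With none changed edgeR called 0. Recovery of smaller effects, such as those of the SR genes, was not tested, nor was a setting in which most genes differ. Genes outside the SR genes were named by rule: all kinases, Tra2a, Tra2b and Srsf12, the 3 largest changes among called genes of each other list that averaged 50 counts or more per library, Tnf and Nfkbia, and tested neighbours that overlap an SR gene or start within 1000 bp on the other strand. Gm9761, Gm12355, Gm12966, Cd14 and Tnpo3 were named after their values were seen. The SR genes, the lists and the rule were chosen with earlier results of these data known.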

Additional observations from a re-analysis of the deposited data

How the results depend on the processing

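The 6 higher and 4 lower calls held under DESeq2's size factors, upper quartile scaling, both filters, DESeq2, limma voom, the replicate block, removal of the 10 most abundant genes, and the removal of each library. With library size alone 3 SR genes were higher, and Srsf4 (-0.0058), Srsf6 (-0.092), Srsf11 (-0.072), Srpk2 (-0.34), Clk1 (-0.17), Clk3 (-0.34) and Sf3b3 (-0.093) changed sign. Of all tested genes 2354 were then higher and 10337 lower, 2964 of the lower ones past both criteria, and 29.0% of calls past both criteria were higher, against 50.4% with TMM and 42.6% with upper quartile scaling. With library size alone higher and lower calls were 0 and 7 for the kinases, 4 and 19 for the SR-like proteins, 8 and 13 for the hnRNP proteins, 2 and 18 for the splice site genes, 0 and 10 for the NMD factors and 0 and 8 for the transport genes. With upper quartile scaling 7 SR-like proteins were higher, 6 hnRNP proteins lower, splice site genes 4 higher and 6 lower, NMD factors 0 higher and 8 lower, and 8 transport genes lower, while Srpk2 (-0.081) and Clk3 (-0.081) changed sign.

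With 10 counts required in every library, 1027 genes were lower past both criteria, since fewer genes were tested. The splice site genes had 1 lower call under either filter and 1 with the replicate block, which changed no call of an SR gene, and 0 to 2 when a library was left out. The median log2 fold change of the SR genes was -0.082 with library size alone, 0.18 with upper quartile scaling, 0.34 with DESeq2 or its size factors, 0.30 with 1 count in any library, 0.31 with 10 counts in every library, and 0.31 to 0.34 when a library was left out. Among the SR genes, leaving out a library moved Srsf9 most, between -0.47 and -0.28.

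Levels in TPM were also taken with the same gene counts over the length of exons of protein-coding transcripts only. Reads from other exons were not removed, so genes with much other exonic sequence come out higher. These levels (PBS, then LPS) were 63.7 and 42.2 for Srsf1, 172 and 91.9 for Srsf2, 111 and 139 for Srsf3, 28.2 and 27.5 for Srsf4, 409 and 428 for Srsf5, 64.8 and 59.6 for Srsf6, 40.1 and 52.3 for Srsf7, 55.7 and 51.8 for Srsf11, and 34.4 for Srsf9 in LPS libraries. With 3 libraries per group no exact permutation test can give a p below 0.1. Gene counts do not separate coding transcripts from those with retained introns.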
